A study of Drosophila melanogaster with 48 samples.

Results

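Ribosome-bound RNA of 7 genes was followed over 2 days of constant darkness (DD) in astrocytes of adult Drosophila melanogaster heads. The genes were CG42329 (FBgn0259229), CG9377 (FBgn0032507), CG14855 (FBgn0038260), CG13283 (FBgn0032613, now named Nepl9), CG13631 (FBgn0040600), CG4825 (FBgn0037010, now named Pss) and Usp8 (FBgn0038862). They are 7 of the 17558 genes counted, and all 7 passed the limit of 20 counts on average over the libraries, as did 9392 genes in all. They were selected on measured values, because their 24 h profiles in these same libraries were strong and most of them are little studied. Their profiles are therefore a description and carry no test.

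The flies carried elav-Gal80, eaat1-Gal4 and UAS-EGFP-L10a, so that ribosomes of astrocytes held a tagged subunit that could be precipitated from head lysates together with its RNA (translating ribosome affinity purification, TRAP). All libraries share this genotype, and the ages of the flies are not given in the sources used here. Flies were kept in 12 h of light and 12 h of darkness, moved to DD and frozen every 4 h from 0 to 44 h, pooled heads making 1 sample. Each of the 12 time points had 2 biological replicates from independent crosses, here called replicate 2 and replicate 1. Each of the 24 libraries had 2 data sets, taken here as 2 sequencing runs of the same library. Sample titles carry letters, a or b by time point in replicate 1, d and e at its 16 h, and c and g in replicate 2. What the letters stand for is not stated. Day 2 covers 24 to 44 h and day 1 covers 0 to 20 h. The eaat1 driver is also active in some cortex glia and in a few neurons of the lamina, and elav-Gal80 was added to block it in neurons.

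In flies, the transcription factors CLOCK and CYCLE switch on per and tim, whose proteins return to the nucleus and repress their own genes, and vri and Pdp1 form a second loop. The same factors drive many output genes, so that transcripts of one tissue peak at different times of day. Glia hold such clocks, and the study found the protein of per in some but not all astrocytes marked by the eaat1 driver. The amount of an RNA on tagged ribosomes depends on how much of the RNA there is and on how far it is loaded with ribosomes, and TRAP does not separate these.

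The 7 genes have different products. CG4825 encodes a phosphatidylserine synthase, which exchanges the head group of membrane phospholipids. Usp8 encodes a deubiquitinase that acts on endosomal cargo and, in fly clock neurons, on CLOCK. CG13283 is named as a neprilysin-like gene, a family of membrane metallopeptidases that cut small peptides. CG14855 belongs to a family of organic ion transporters whose mammalian members are called SLC22. CG9377 carries a synonym that marks it as a serine protease homologue, a type of protein with a protease fold that lacks catalytic activity. CG42329 has been matched to a mouse acyltransferase gene, Oacyl. No role was assigned to CG13631.

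Libraries held 6371034 to 37267216 counts on genes. For replicate 1 at 28 h only 91 counts came from the first sequencing run, and nearly all of that library came from the second. In the 28 h library of replicate 2, which is the shallowest, 47.0% of tallied reads had no unique position and 10 genes took 49.6% of the counts on genes. The share of reads without a unique position was 9.47% in the 16 h library of replicate 1, against a median of 26.9% over the 12 libraries of that replicate. Without these 3 libraries the amplitudes of the 7 genes lay between 0.41 and 1.70, and the largest shift of a fitted peak was that of Usp8, to 11.6 h without them against 12.2 h with them. A 24 h curve took up 1.20% of the variance of the log2 scaling factors, 3.51% of that of the log2 depths and 5.26% of that of the share of reads without a unique position. Of 9 markers of astrocytes and other glia, 2 could be paired with an identifier, namely ebony (e), with 20.8 to 72.0 CPM (counts scaled to a common library total), and wrapper, with 6.70 to 20.5 CPM. The levels of Eaat1, alrm, Gat, Gs2 and repo were not used here, nor were those of the neuron, photoreceptor, fat body and muscle markers. Of 3 hemocyte markers, NimC1 lay at 1.35 to 5.98 CPM and Sr-CI at 1.62 to 8.58 CPM, and their part in the profiles was not tested. In such bulk samples, fewer cells of a type and less RNA per cell cannot be told apart.

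Levels below are CPM after scaling of the libraries by the trimmed mean of M values (TMM). Amplitudes are on a log2 scale and give how far the fitted 24 h curve runs above its mean, and peak times are those of the same curve, counted from 0 h in DD and each with its standard error (SE). The labels do not say at which light transition 0 h was set, and the clock genes serve as the time marks. In these libraries per peaked at 14.1 ± 0.31 h with an amplitude of 1.19 ± 0.10, and tim at 15.7 ± 0.40 h with an amplitude of 1.77 ± 0.18.

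Of the 7 genes, 4 had their highest mean of each day within its first 4 h, opposite in time to per. These were CG42329, CG9377, CG13283 and CG4825. CG42329, the acyltransferase-type gene on chromosome 2L (1219293 to 1229802, Release 6), had the deepest daily profile. From 0 to 44 h in replicate 2 its levels were 6.47, 8.05, 1.76, 1.196, 0.427, 5.38, 2.82, 9.02, 3.56, 1.11, 1.12 and 1.305 CPM. In replicate 1 the levels were 6.05, 5.98, 1.903, 0.428, 0.326, 2.16, 4.404, 5.84, 1.62, 1.92, 0.158 and 2.06 CPM. Both replicates were high at 0 and 4 h and again at 28 h, and near the floor at 16 h. The mean at 28 h was 7.43 ± 2.25 CPM (SD, n = 2), against 0.376 ± 0.071 CPM at 16 h, a ratio of 19.7. The 28 h mean rests wholly on 2 of the 3 libraries named above, and the 16 h mean includes the other. At 4 h, where neither library is one of them, the mean was 7.02 ± 1.46 CPM. The gene is counted thinly, with 3 to 274 counts per library, and the 3 counts of replicate 1 at 40 h stand for 0.158 CPM with an exact Poisson interval of 0.0325 to 0.461 (95%, counting error only). Its highest value, 9.02 CPM, rests on 36 counts in the 28 h library of replicate 2. Its amplitude was 1.81 ± 0.23 over 24 libraries and 1.70 ± 0.27 without the 3 libraries named above.

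CG9377, the serine protease homologue on 2L (13359901 to 13361565), was less even between the replicates. In replicate 2 its levels from 0 to 44 h were 52.3, 30.9, 29.5, 17.4, 10.9, 18.3, 32.5, 20.6, 32.5, 11.7, 15.4 and 13.05 CPM. In replicate 1 they were 40.6, 46.2, 16.8, 13.8, 9.07, 23.7, 21.1, 45.9, 11.1, 7.69, 15.4 and 24.5 CPM. Both replicates were high at 0 to 4 h and low at 16 h and at 36 h, but they parted at 28 h and 32 h. At 28 h the level was 20.6 CPM in replicate 2 against 45.9 CPM in replicate 1, and at 32 h it was 32.5 CPM in replicate 2 against 11.1 CPM in replicate 1. Both 28 h libraries are among the 3 named above, and the 32 h libraries are not. The logged profiles of the replicates correlated with r = 0.54 over 12 time points, the lowest value of the 7 genes. The mean at 0 h was 46.4 ± 8.30 CPM (SD, n = 2), against 9.70 ± 2.85 CPM at 36 h, a ratio of 4.79.

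CG13283, the neprilysin-like gene on 2L (16835136 to 16837258), was the gene on which the replicates lay closest together in shape. From 0 to 44 h it had 28.6, 25.3, 14.3, 10.2, 7.04, 10.4, 26.7, 23.6, 16.1, 13.5, 13.8 and 15.1 CPM in replicate 2. It had 14.2, 21.5, 11.4, 5.64, 7.12, 7.93, 17.8, 16.8, 12.2, 9.498, 10.2 and 11.1 CPM in replicate 1. In both replicates the level was highest within the first 4 h of each day and then declined over the next 8 to 12 h. The replicates correlated with r = 0.91 over the 12 time points, the highest value of the 7. The mean was 23.4 ± 2.65 CPM at 4 h (SD, n = 2) and 7.08 ± 0.054 CPM at 16 h, a ratio of 3.31. The 16 h mean includes the library of replicate 1 named above. On day 2 the trough was shallower, with 11.5 ± 2.83 CPM at 36 h.

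CG4825, the phosphatidylserine synthase gene on 3L (20522440 to 20526174), had a smaller range. Its levels in replicate 2 were 71.1, 56.9, 38.2, 36.9, 30.3, 49.1, 42.5, 61.2, 48.9, 32.7, 41.4 and 43.8 CPM from 0 to 44 h. Those in replicate 1 were 65.5, 52.7, 36.5, 26.04, 36.2, 33.04, 49.1, 51.6, 38.7, 38.1, 31.8 and 34.6 CPM. The highest level of each replicate was at 0 h, and the second day brought a lower maximum at 28 h in both. The mean at 0 h was 68.3 ± 3.96 CPM (SD, n = 2), against 31.5 ± 7.65 CPM at 12 h, a ratio of 2.17. On day 2 the means were 56.4 ± 6.75 CPM at 28 h and 35.4 ± 3.81 CPM at 36 h, a ratio of 1.59. The 28 h mean rests wholly on libraries named above for their quality.

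Usp8 and CG14855 were high when those 4 genes were low. Usp8, the deubiquitinase gene on 3R (21134262 to 21138214), had 11.8, 13.3, 20.8, 37.8, 18.5, 22.5, 8.35, 7.52, 19.9, 29.7, 15.2 and 9.79 CPM from 0 to 44 h in replicate 2. In replicate 1 it had 12.2, 11.7, 28.3, 42.2, 27.98, 18.4, 12.8, 13.8, 33.9, 13.1, 23.7 and 12.8 CPM. On day 1 both replicates had their maximum at 12 h, with a mean of 40.01 ± 3.05 CPM (SD, n = 2) against 12.0 ± 0.26 CPM at 0 h. On day 2 the replicates differed in timing, with the maximum at 36 h in replicate 2 (29.7 CPM) and at 32 h in replicate 1 (33.9 CPM). Replicate 1 held 13.1 CPM at 36 h and 23.7 CPM at 40 h, so that its second day had 2 separate high points. A 24 h curve took up 88.9% of the variance on day 2 of replicate 2 and 28.7% on day 2 of replicate 1.

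CG14855, the transporter gene on 3R (14796305 to 14798474), was the most thinly counted of the 7, with 2 to 114 counts per library. In replicate 2 its levels were 1.34, 1.499, 1.34, 3.59, 3.200, 1.85, 0.353, 0.501, 1.47, 4.53, 3.84 and 1.96 CPM from 0 to 44 h. In replicate 1 they were 0.893, 1.35, 1.67, 2.64, 4.56, 2.55, 0.694, 1.32, 2.21, 2.86, 3.31 and 2.69 CPM. The level was highest at 12 to 16 h and at 36 to 40 h in both replicates and lowest at 24 h. The mean was 3.88 ± 0.96 CPM at 16 h (SD, n = 2) and 0.523 ± 0.24 CPM at 24 h. The 16 h mean includes the library of replicate 1 named above. The lowest values of replicate 2 rest on 3 counts at 24 h and 2 counts at 28 h. The 2 counts stand for 0.501 CPM, with an exact Poisson interval of 0.0607 to 1.81 CPM (95%).

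CG13631, the gene without an assigned role on 3R (24769351 to 24770933), was the most deeply counted, with 524 to 5964 counts per library, and had a timing of its own. From 0 to 44 h it had 228, 139.7, 129, 117, 188, 266, 201, 131, 119, 189, 210.0 and 191 CPM in replicate 2. It had 159.8, 126, 93.7, 116, 239, 181, 132, 94.04, 105, 168, 185 and 194 CPM in replicate 1. In both replicates the level was low at 8 to 12 h and at 28 to 32 h. The maximum on day 1 came at 20 h in replicate 2 and at 16 h in replicate 1, in 1 of the 3 libraries named above. The mean was 223 ± 60.1 CPM at 20 h (SD, n = 2) and 111 ± 24.8 CPM at 8 h, a ratio of 2.01.

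**Figure D1:**
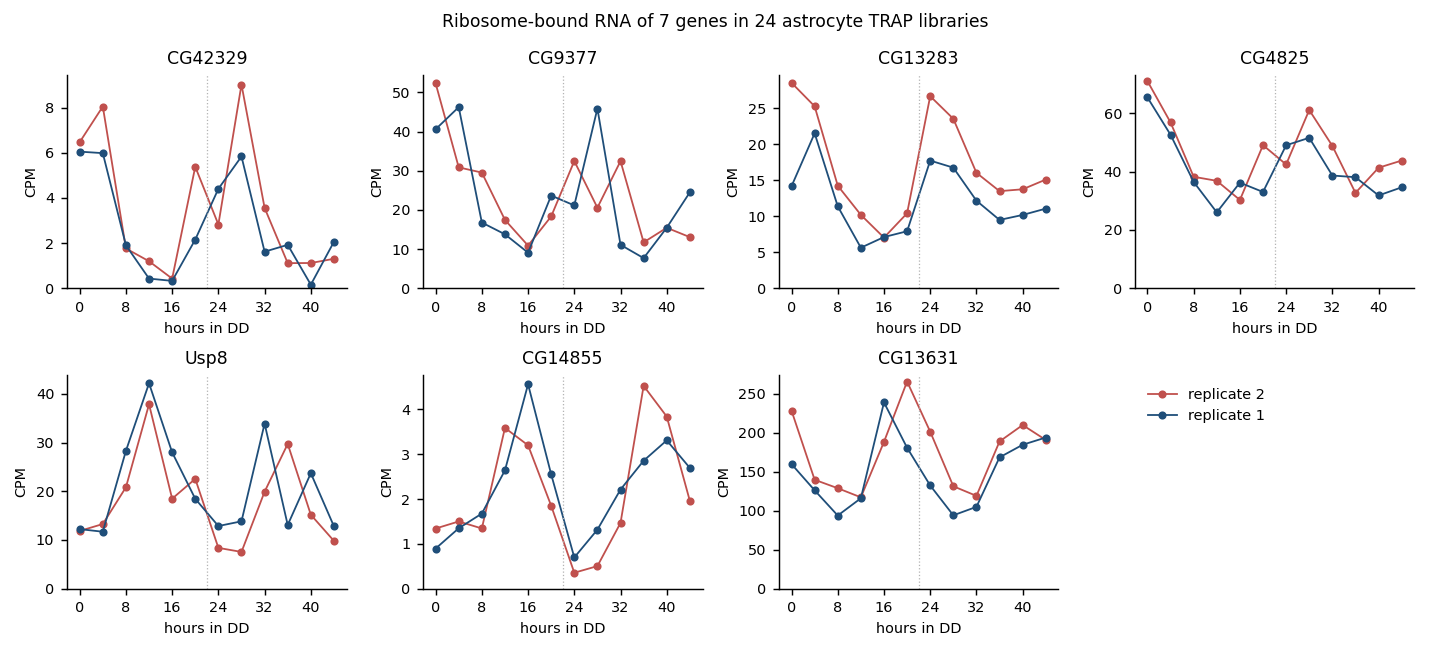
Level in CPM after TMM scaling (vertical axes from 0) against hours in DD for each gene, with replicate 2 in red and replicate 1 in blue, 1 library a point, and a dotted line between day 1 and day 2. CG42329, CG9377, CG13283 and CG4825 are high at 0 to 4 h, and their highest means of day 2 are at 24 or 28 h. In replicate 2, CG42329 and CG4825 at 24 h lie below their 20 h levels, and CG9377 is lower at 28 h than at 32 h. On day 1, Usp8 and CG14855 are high near 12 to 16 h, and CG13631 near 16 to 20 h.

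The fitted peak times fell into these groups in both replicates. Over the 24 libraries they were 1.96 ± 0.62 h for CG4825, 2.09 ± 0.64 h for CG9377, 2.54 ± 0.49 h for CG42329 and 2.60 ± 0.62 h for CG13283. These 4 values lie within about 1 SE of each other and cannot be put in order. Usp8 peaked at 12.2 ± 0.73 h and CG14855 at 14.3 ± 0.49 h, and CG13631 at 18.95 ± 0.58 h. CG14855 peaked 0.18 ± 0.58 h after per, and its profile was closer to that of per (r = 0.84 over 24 libraries) than to that of any other gene past the count limit. With the 24 h curve taken out of both, r was 0.21. Usp8 peaked 22.1 ± 0.80 h after per, that is, ahead of it. CG42329, CG9377, CG13283 and CG4825 peaked 12.4 ± 0.58, 12.0 ± 0.71, 12.5 ± 0.69 and 11.9 ± 0.69 h after per. CG13631 peaked 4.86 ± 0.66 h after per and 3.25 ± 0.70 h after tim. Each SE of such a gap treats the fits as independent, although both genes were measured in the same libraries.

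**Figure D2:**
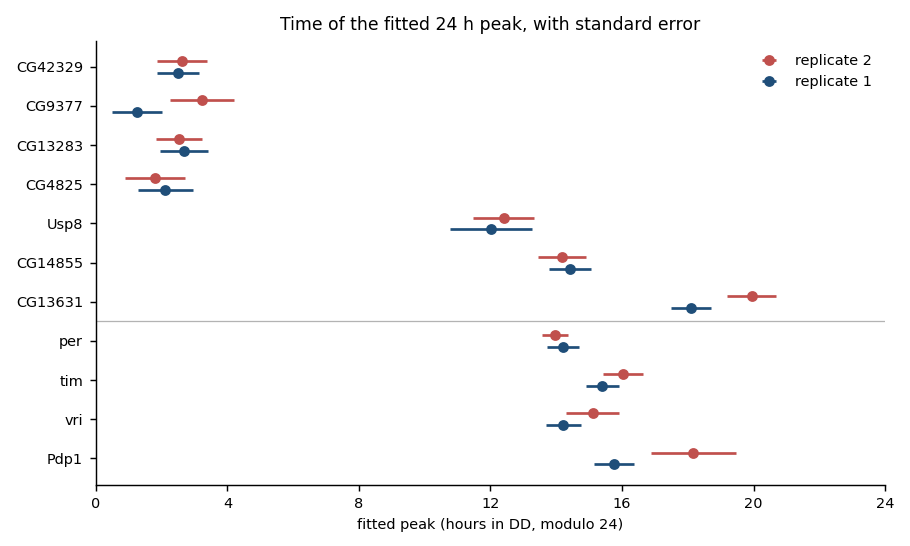
Time of the fitted 24 h peak in hours in DD, modulo 24 (horizontal axis), for the 7 genes above the grey line and the clock genes below it, with replicate 2 in red, replicate 1 in blue and bars of 1 SE from 12 libraries each. Among the 7 genes, the largest gaps between the replicates are at CG9377 (3.23 h in replicate 2 and 1.25 h in replicate 1) and CG13631 (19.9 h in replicate 2 and 18.1 h in replicate 1).

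The amplitudes over the 24 libraries were 1.81 ± 0.23 for CG42329, 1.12 ± 0.15 for CG14855 and 0.86 ± 0.14 for CG9377. Usp8 had 0.71 ± 0.14, CG13283 0.70 ± 0.11, CG13631 0.49 ± 0.07 and CG4825 0.41 ± 0.07. The median amplitude over the 9392 genes was 0.16. CG42329 held rank 7 of all genes in amplitude and CG4825 rank 1453. By the p of the 24 h fit the 7 genes held ranks 6 and 8 to 13. JTK_CYCLE, a rank test against cosine curves of 20, 24 and 28 h, chose a period of 24 h for CG9377, CG14855, CG13283, CG13631 and Usp8, and 28 h for CG42329 and CG4825. It called 2.81% of the 9392 genes and all 7 of these, and the 24 h fit with edgeR called 0.33% of genes and all 7, which is the contrast they were chosen on. When either replicate was left out, the edgeR fit called 1 gene, which was none of the 7, and without the 3 libraries named above it called 13 genes, 3 of the 7 among them.

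The comparison of day 2 with day 1 asks whether the profiles held their size and timing in DD. It does not use the average rhythm on which the genes were chosen. The amplitude was lower on day 2 in both replicates for CG42329, CG9377, CG13283, CG4825 and CG13631, and also for per, tim, vri and Pdp1. For CG13631 in replicate 1 the difference was only -0.01. The share of all genes with a lower amplitude on day 2 in both replicates is not given here. The 28 h libraries, both named above for their quality, fall in day 2. Amplitudes by day without them are not given here. For CG42329 the amplitude was 1.64 ± 0.36 on day 2 and 2.08 ± 0.27 on day 1. CG13283 had 0.49 ± 0.12 on day 2 and 0.93 ± 0.15 on day 1, with a fitted fold of peak over trough of 1.96 on day 2 and 3.61 on day 1. For CG4825 the amplitude was 0.30 ± 0.08 on day 2 and 0.55 ± 0.10 on day 1. CG13631 had 0.39 on day 2 and 0.60 on day 1 in replicate 2, while replicate 1 had 0.55 ± 0.07 on day 2 and 0.56 ± 0.16 on day 1. CG14855 differed in the other direction in replicate 2. In replicate 2 its amplitude was 1.86 on day 2 and 0.72 on day 1, whereas replicate 1 had 0.96 on day 2 and 0.97 on day 1. Day 2 of replicate 2 includes the libraries with 3 and 2 counts.

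Usp8 had opposite differences in the replicates, with 0.95 on day 2 and 0.64 on day 1 in replicate 2, and 0.41 on day 2 and 0.93 on day 1 in replicate 1. Among the clock genes, tim had 1.27 ± 0.19 on day 2 and 2.26 ± 0.14 on day 1. In per the amplitudes were 1.12 ± 0.13 on day 2 and 1.29 ± 0.13 on day 1. None of the 7 genes passed the edgeR test of the rhythm on day 2 against day 1, where 0% of the 9392 genes were called. The adjusted p of the 7 lay between 0.787 and 1.00, while 597 genes had an unadjusted p under 0.05, and DESeq2 and limma-voom also called 0. The test takes amplitude and peak time together, so the size of its difference also holds a shift of the peak. This size had a median of 0.35 for the 7 genes and 0.28 for all genes tested. CG13631 peaked at 17.6 ± 0.76 h on day 2 and at 20.1 ± 0.70 h on day 1. CG42329 peaked at 3.52 ± 0.83 h on day 2 and at 1.78 ± 0.50 h on day 1.

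**Figure D3:**
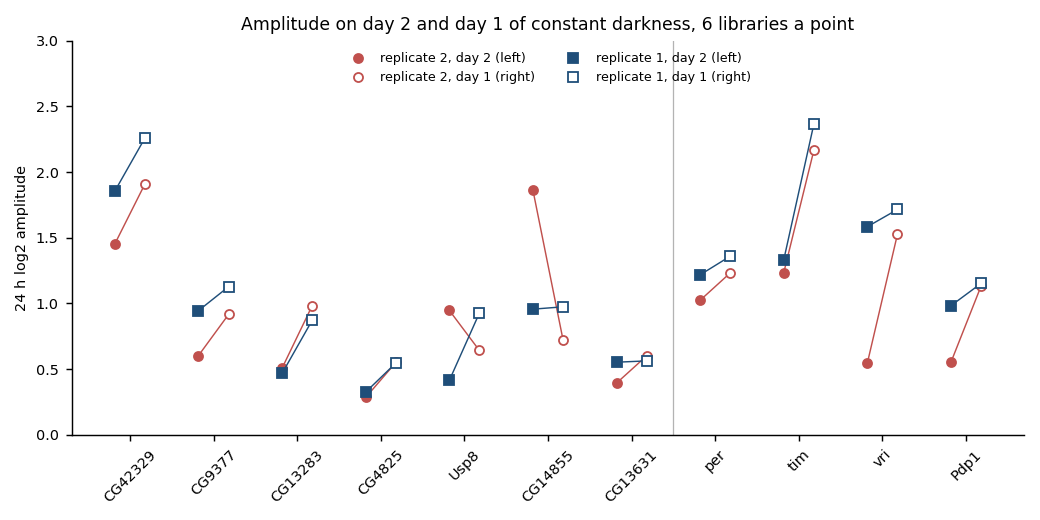
The 24 h amplitude on a log2 scale (vertical axis from 0) on day 2 (filled, left of each pair) and on day 1 (open, right), with replicate 2 as red circles and replicate 1 as blue squares, each from 6 libraries, for the 7 genes and, right of the grey line, the clock genes. Day 2 is lower for both replicates of CG42329, CG9377, CG13283, CG4825, CG13631 and the clock genes, though by little for CG13631 in replicate 1. The replicates differ in direction for Usp8 and CG14855.

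The mean level over a whole day was compared in the same way. The level of Usp8 had a median of 13.4 CPM over the 12 libraries of day 2 and 19.6 CPM over those of day 1, with overlapping ranges of 7.52 to 33.9 CPM on day 2 and 11.7 to 42.2 CPM on day 1. Its log2 difference was -0.37 and missed the threshold (adjusted p = 0.39, edgeR). CG13283 had a median of 14.4 CPM on day 2 and 10.9 CPM on day 1, with ranges of 9.50 to 26.7 CPM on day 2 and 5.64 to 28.6 CPM on day 1 and a log2 difference of 0.29 (adjusted p = 0.40). The other 5 genes had log2 differences between -0.22 and -0.01 with adjusted p between 0.671 and 0.992. The edgeR test called 0% of the 9392 genes, against 1186 with an unadjusted p under 0.05 and 10 calls with DESeq2, none of them among the 7. The median log2 difference was -0.03 for the 7 genes and -0.0025 for all.

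The difference between the biological replicates gives the spread against which these values stand. The replicates came from independent crosses and also from different sequencing data sets, so cross and sequencing cannot be told apart in it. The median share of reads without a unique position was 4.84% in replicate 2 and 26.9% in replicate 1. The mean level of CG13283 was higher in replicate 2 than in replicate 1 at 11 of 12 time points. Its median was 14.7 CPM (7.04 to 28.6) in replicate 2 and 11.2 CPM (5.64 to 21.5) in replicate 1, and these ranges overlap. With the 24 h curve in the fit, the level of CG13283 was higher in replicate 2 with a log2 difference of 0.48 (adjusted p = 0.0051, edgeR). It was 1 of 7 genes called, where 33.2% of all 9392 genes were called and 17.6% were higher in replicate 2. CG13631 had a log2 difference of 0.25 with an adjusted p of 0.053, and was higher in replicate 2 at 10 of 12 time points, and it passed the threshold in 5 of 8 alternative fits. The remaining 5 genes had log2 differences from -0.24 for Usp8 to 0.45 for CG42329, with adjusted p from 0.178 to 0.708. Over all genes the median log2 difference was 0.03, and over the 7 it was 0.17.

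**Figure D4:**
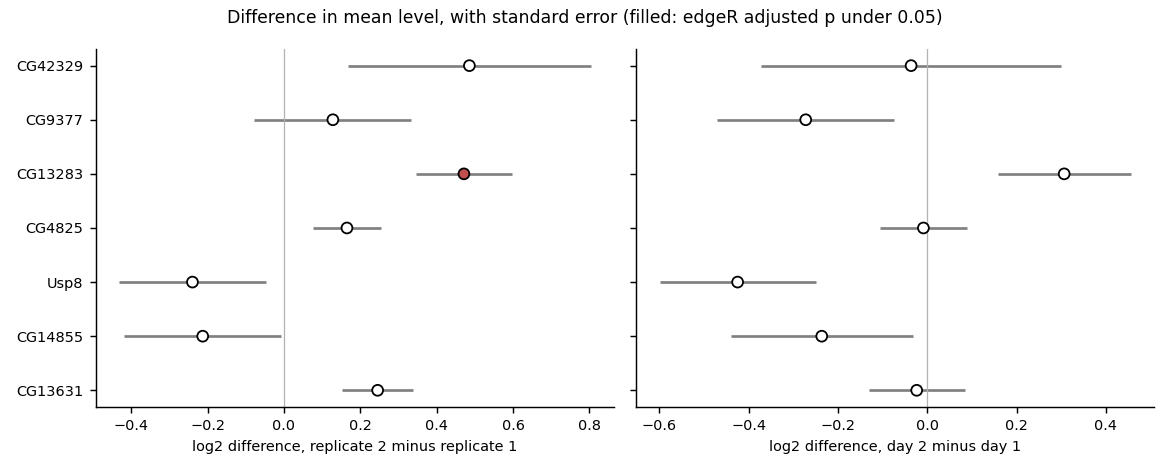
Least-squares log2 difference in mean level, with bars of 1 SE, for replicate 2 minus replicate 1 (left) and day 2 minus day 1 (right), with a filled point where the edgeR adjusted p was under 0.05. CG13283 between the replicates (0.47 ± 0.13) is the only filled point.

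No difference in rhythm between the replicates was detected. Amplitude and peak time of the 7 genes gave adjusted p of 0.985 to 0.995 for replicate 2 against replicate 1. The edgeR test called 0% of the 9392 genes, with 287 at an unadjusted p under 0.05 and 0 calls with DESeq2. CG42329 had an amplitude of 1.59 ± 0.31 in replicate 2 and 2.04 ± 0.34 in replicate 1. CG9377 had 0.76 ± 0.19 in replicate 2 and 1.02 ± 0.20 in replicate 1. The logged profiles of the replicates correlated with r between 0.54 and 0.91 for the 7 genes over 12 time points, a description of genes picked for regular profiles, and the median over all genes was 0.10.

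The shape of the profiles was compared with a curve that also held a 12 h component. The size of this component in the 7 genes lay between 0.015 for CG9377 and 0.21 for Usp8 on the log2 scale. Their adjusted p was 0.954 to 0.999, and the edgeR test called 0% of the 9392 genes, against 566 at an unadjusted p under 0.05 and 0 with DESeq2. The median size was 0.16 in the 7 genes and 0.15 in all.

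Ratios of deposited counts within a library need no scaling between libraries, and set genes with different timing against each other. Both genes of a ratio were chosen as rhythmic, so a rhythm of the ratio is a description. The count of CG9377 was 0.394 to 4.42 times that of Usp8 in replicate 2, lowest at 36 h and highest at 0 h. In replicate 1 the ratio ran from 0.324 at 16 h to 3.96 at 4 h. Its 24 h amplitude was 1.53 ± 0.18 over the 24 libraries. The ratio of CG13283 to CG13631, the neprilysin-like gene and the most deeply counted gene, was alike in the replicates. It ran from 0.0374 at 16 h to 0.181 at 4 h in replicate 2, and from 0.0298 at 16 h to 0.178 at 28 h in replicate 1. Its amplitude was 1.01 ± 0.09, with 0.94 ± 0.14 in replicate 2 and 1.09 ± 0.12 in replicate 1. In replicate 1 the ratios at 16 h and 28 h come from libraries named above for their quality. These ratios combine both genes' lengths and do not compare their levels.

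**Figure D5:**
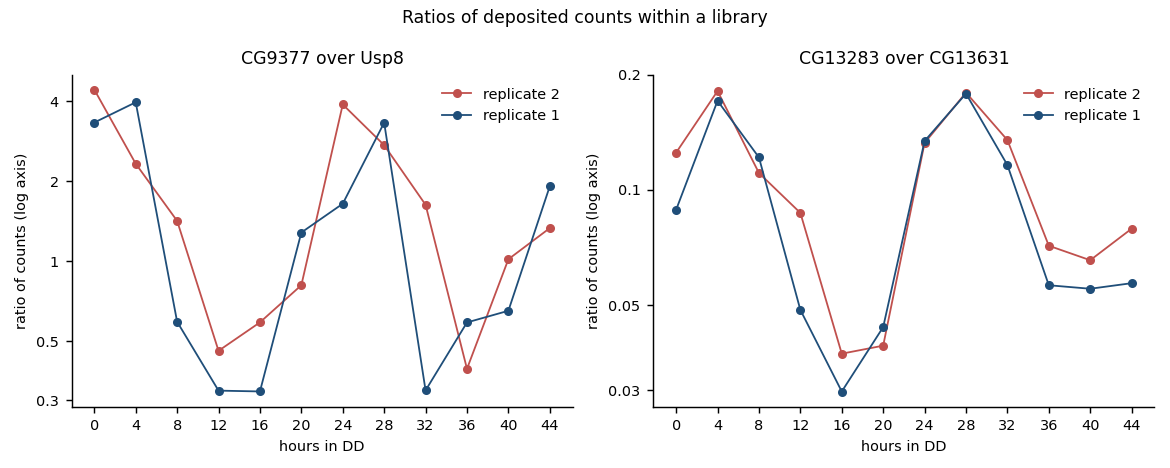
Ratio of the deposited counts of 2 genes in the same library (log axis) against hours in DD, with replicate 2 in red and replicate 1 in blue, for CG9377 over Usp8 (left) and CG13283 over CG13631 (right). The ratio of CG13283 to CG13631 is lowest at 16 h in both replicates and highest at 4 h and 28 h.

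The genes most like each of the 7 were sought by Pearson's r of log2 levels over the 24 libraries, among all genes past the count limit. These points share libraries and depth, and the 7 genes were chosen as rhythmic, so r is a description. CG42329 was closest to Ugt35B1, a UDP-glycosyltransferase gene (r = 0.88, with 0.82 in replicate 2 and 0.96 in replicate 1), to CG4825 (r = 0.84) and to the cytochrome P450 gene Cyp4aa1 (r = 0.82). CG9377 shared Ugt35B1 (r = 0.80) and Cyp4aa1 (r = 0.75), and came next to Idgf1, a chitinase-like growth factor gene (r = 0.75). CG13283 was closest to SP1173 (r = 0.81), CG4825 (r = 0.80) and GstZ2, a glutathione S-transferase gene (r = 0.75). CG4825 was closest to CG42329, CG13283 and the kinase gene Drak (r = 0.79).

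After per, CG14855 was closest to Fatp3, a fatty acid transport protein gene (r = 0.74), and Nha2, a sodium/proton antiporter gene (r = 0.71). Usp8 was closest to tobi, an alpha-glucosidase gene that responds to insulin-producing cells (r = 0.76), CG17572, another serine protease homologue by its synonym (r = 0.76), and Gclm, the modifier subunit of the enzyme that starts glutathione synthesis (r = 0.75). CG13631 was closest to Rab35, a small GTPase gene (r = 0.78), CG3376, an acid sphingomyelinase gene by its synonym (r = 0.76), and the cytochrome P450 gene Cyp4d21 (r = 0.75).

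What was left after the 24 h curve was also compared between the 7 genes. CG42329 and CG4825 kept r = 0.52 and CG13283 and CG13631 r = 0.57 over 24 libraries, although the last 2 peak at different times and had r = -0.08 before the curve was taken out. CG13283 and Usp8 had r = -0.50. The other 18 pairs lay between -0.27 and 0.47. The libraries share depth and replicate, and the level of CG13283 differed between the replicates, so these values say only that some libraries were high or low for both genes.

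Other genes of the same pathways could be read only in part. Of 13 genes of phospholipid synthesis, 3 were paired with an identifier, CG4825 included. CdsA (now Cds), the CDP-diacylglycerol synthase gene, had 18.996 to 59.7 CPM with an amplitude of 0.36 ± 0.11 and a peak at 1.70 h. Pcyt2, which makes CDP-ethanolamine, had 23.6 to 51.8 CPM, an amplitude of 0.34 ± 0.05 and a peak at 4.16 h. Pcyt2 passed the edgeR test of the 24 h curve, where 0.33% of all genes did, and CdsA did not. The tables used for pairing list genes by the p of their rhythm, so the paired genes are no random choice from the pathway. Of 21 genes of ubiquitin removal, 2 were paired, and Usp32, the other than Usp8, had 7.86 to 32.3 CPM and an amplitude of 0.24 ± 0.12 with a peak at 4.39 h.

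The 7 genes lie on 3 chromosome arms and none overlapped another gene in the RefSeq bounds. CG5104 lies 6 bases from CG4825, and meigo 56 bases from Usp8. Because strand was not stated for the counting, reads at such borders may be shared. The level of meigo, which lay at 12.8 to 28.3 CPM, had an amplitude of 0.32 ± 0.06 with a peak at 6.54 h, and correlated with Usp8 with r = 0.05 over 24 libraries. Trm7-34, on the other side of Usp8, had an amplitude of 0.11 ± 0.08, and Nubp2, beside CG4825, 0.04 ± 0.08. CG5397, the neighbour of CG42329 across 10234 bases, had an amplitude of 0.34 ± 0.09 and peaked at 12.99 h, opposite to CG42329 (r = -0.49). None of these 4 neighbours passed the edgeR test of the 24 h curve, with adjusted p of 0.082 to 1.00. The study lists meigo among its cycling genes, which it called with JTK_CYCLE.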

How the data were processed

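The authors sequenced TRAP libraries single-end, trimmed them with FastX, mapped them onto genome Release 6 using TopHat2 2.0.9 and Bowtie, and deposited raw counts per gene from HTSeq 0.6.1 (48 data sets, 17558 genes). Counting mode and strand are not given in the sources used here. Counts of the 2 data sets of a library, taken as its sequencing runs, were summed, and genes with at least 20 counts on average were kept (9392). The 7 genes and all lists were chosen with earlier results of these data known. Named genes were the 7, per, tim, vri and Pdp1, the 3 genes of highest r per gene, neighbours, and the lists of markers, phospholipid synthesis and ubiquitin removal. Identifiers were paired with symbols for 1718 genes through tables of the study that list genes by the p of their rhythm, and 1711 were found in RefSeq (Release 6).

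Tests were edgeR 4.0.16 quasi-likelihood fits (R 4.3.3, TMM, 24 h cosine and sine, Benjamini-Hochberg, threshold 0.05). Curves were fitted by least squares on log2 CPM with a pseudocount of 0.5 counts (Python 3.11.15, numpy 2.4.6). JTK_CYCLE was rewritten and run on quantile-normalized counts with an amplitude limit of 0.5. This limit is in normalized counts and not on the log2 scale of the amplitudes above. Alternatives used limma 3.58.1, DESeq2 1.42.0, other size factors, count limits of 1 and 100, a replicate block, and omitted libraries. The tests were tried on simulated data. The p-values measure the spread between libraries, and depth limits mainly the 2 thinly counted genes. Protein relatives and promoter motifs were not analysed here.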

Additional observations from a re-analysis of the deposited data

How the results depend on the processing

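Of 333 alternative fits of a single gene in the 5 tests, 308 kept their side of the threshold and, where a difference has a sign, its direction. None lost a call, 6 gained one, and 19 turned the sign of a difference that passed in none of them. Tests of rhythm and of the 12 h component give no sign and could change only by gaining a call. None did, so all changes lie in the tests of level. CG13631 passed between the replicates with quantile normalization (log2 difference 0.37, adjusted p = 0.0083), a limit of 100 counts (0.30, 0.014), DESeq2 (0.24, 0.037), the second run of each library alone, called runs 2 and 4 (0.27, 0.038) and without both 28 h libraries and the 16 h library of replicate 1 (0.29, 0.032). CG4825 passed there with a limit of 100 counts (0.22, 0.049). CG13283 passed in all 8 alternatives (adjusted p = 0.0014 to 0.024).

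The turned signs belonged to log2 differences of 0.25 or less, and the cause was not tested. For day 2 against day 1, CG42329 had 0.025 with RLE size factors, 0.014 with DESeq2, 0.020 with the replicate block, -0.21 to 0.25 when either replicate was left out (0.25 without replicate 2) and 0.077 with runs 2 and 4. CG13631 had 0.017 with RLE, 0.078 with quantile normalization, 0.029 with a limit of 100 counts, 0.017 with DESeq2, -0.069 to 0.0061 when either replicate was left out (0.0061 without replicate 1), 0.025 without the 3 libraries and 0.0022 with runs 2 and 4. CG4825 had 0.027 with RLE, 0.018 with quantile normalization, 0.041 with a limit of 100 counts, 0.025 with DESeq2 and 0.00051 with runs 2 and 4. CG14855 between the replicates had 0.13 with limma-voom and 0.0017 without the 3 libraries.

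The count of genes whose level differed between the days was 0, 10 with DESeq2, 1 without replicate 1 (0 to 1 when either replicate was left out) and 1 without the 3 libraries. Rhythmic calls were 264 with JTK_CYCLE and 437 with the replicate block, and 31 with the edgeR 24 h fit and 55 with its replicate block. Alternatives to the edgeR count chosen after seeing the data gave 82 with DESeq2, 45 with limma-voom, 44 with a limit of 1 count, 32 with RLE, 33 with quantile normalization, 13 without the 3 libraries and 1 when either replicate was left out. Of the 7 genes, 6 were called with quantile normalization and with runs 2 and 4, 3 without the 3 libraries and none when either replicate was left out. A pairing by replicate number was taken only if differences between replicates correlated above 0.1 in every pair of time points. They did in 44 of 66 (lowest r = -0.75, median 0.17), so the block is given as an alternative. For 11 of 12 time points the difference correlated positively, on average, with the others. The block changed no other count by more than 1.5 times.

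Of 77 alternative amplitudes, 62 moved by less than the SD of the 2 replicates. The block cannot move an amplitude and single-replicate fits set this SD, so neither tests it. A period of 20 h gave 1.13 for CG42329, 0.64 for CG9377, 0.88 for CG14855, 0.55 for CG13283 and 0.23 for CG4825. A period of 28 h gave 0.62 for CG13283, 0.37 for CG13631 and 0.59 for Usp8. Day 2 alone gave 1.41 for CG14855, 0.49 for CG13283 and 0.30 for CG4825, and day 1 alone 0.85, 0.93 and 0.55 for these and 0.56 for CG13631. A limit of 100 counts leaves CG42329 and CG14855 untested.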
